A study of Mus musculus with 2 samples.

Results

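The clustered histone genes of the mouse were taken as every gene whose symbol begins with Hist1h, Hist2h, Hist3h or Hist4h, which gave 67 of the 32285 genes in the count matrix. Of these, 6 encode the linker histone H1, 18 encode H2A, 18 encode H2B, 12 encode H3 and 13 encode H4. Their messages were measured in B16 F10, a mouse melanoma line whose cells make melanin. Both groups were the same line without added treatment, grown from a seeding of 100 cells per cm2 in medium with 10% serum until day 7. A flow cytometer then separated a low pigment from a high pigment fraction by side scatter, the way light leaves a granular cell, so the pigment classes are gates on light scatter. Each fraction gave 1 droplet library with a 10x Genomics 3′ kit, and the authors' cell table assigns each cell to the phase G1, S or G2M. With 1 library per group there is no replicate check, cells are not replicates, and no test was made. All 95% intervals cover counting error only.

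Most messages of the clustered histone genes are made while DNA is copied, and they end in a short conserved stem-loop instead of a poly(A) tail. The stem-loop binding protein, encoded by Slbp, holds that end and takes part in its processing, its transport and its loss after replication. Some histone genes also make longer messages that pass the stem-loop and end at an ordinary poly(A) site, which is known from differentiated and non-dividing cells. The kit used here primes on poly(A), so the counts are taken as polyadenylated histone RNA and do not measure the stem-loop-ended form. Read ends were not examined, so whether a part of the counts came from the stem-loop-ended form was not tested.

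The stem-loop was looked up in the annotated transcripts of the members (GENCODE, build GRCm38), because it marks where the usual histone message ends and how much annotated transcript lies beyond it. A 16-base match was found in 46 of the 67 genes, with 8 different stem-loops, and 26 genes shared the most frequent of these, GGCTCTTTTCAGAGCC. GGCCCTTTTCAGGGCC stood in 7 genes, all of H4, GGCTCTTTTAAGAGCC in 6, and the other forms in 1 or 2 genes each. Below are the sites of the 12 genes of at least 10 CPM (UMI counts per 1000000 UMIs of the group, where a UMI is a unique molecular identifier, 1 per captured molecule) in which it was found, each with 5 bases to either side and capitals for the stem-loop.
Hist1h2ae, chr13:23570663-23570688, minus strand: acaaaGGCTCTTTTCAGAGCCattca
Hist1h1e, chr13:23621777-23621802, minus strand: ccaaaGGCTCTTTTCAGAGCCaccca
Hist1h1c, chr13:23739507-23739532, plus strand: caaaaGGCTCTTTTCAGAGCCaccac
Hist1h1d, chr13:23555782-23555807, plus strand: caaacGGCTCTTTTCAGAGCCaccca
Hist1h2ac, chr13:23683472-23683497, minus strand: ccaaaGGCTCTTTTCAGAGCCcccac
Hist3h2a, chr11:58955167-58955192, plus strand: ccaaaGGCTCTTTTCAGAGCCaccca
Hist2h2aa1, chr3:96246027-96246052, plus strand: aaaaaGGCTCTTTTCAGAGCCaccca
Hist2h2ac, chr3:96220413-96220438, minus strand: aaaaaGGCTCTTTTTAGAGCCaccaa
Hist1h3d, chr13:23576239-23576264, plus strand: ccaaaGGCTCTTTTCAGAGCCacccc
Hist1h4d, chr13:23581945-23581970, plus strand: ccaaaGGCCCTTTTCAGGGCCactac
Hist1h4i, chr13:22040961-22040986, minus strand: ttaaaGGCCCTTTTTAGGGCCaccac
Hist1h4h, chr13:23531453-23531478, plus strand: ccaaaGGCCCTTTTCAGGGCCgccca

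The remaining gene of at least 10 CPM, Hist1h2bc, held no match. Its annotated transcript has 2 exons and spans chr13:23684199-23692908 on the plus strand. The other genes with a printed site have 1 exon each. The annotated transcript ran on after the stem-loop for 4884 bases in Hist1h1d, 2010 in Hist1h2ac, 1643 in Hist3h2a and 1153 in Hist1h1e. It ran on for 840 bases in Hist1h1c, 770 in Hist1h4d, 752 in Hist1h3d, 330 in Hist1h4i and 151 in Hist1h2ae. In the other 3 it stopped sooner, after 57 bases in Hist2h2ac, 46 in Hist1h4h and 35 in Hist2h2aa1.

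The 2 libraries differed in depth. From 1900 low pigment cells came 32437194 UMIs (median 16019.5 in a cell), and from 2136 high pigment cells 28848691 (median 12557). Depth also differed between phases, from a median of 13817 in G1 to 20280 in G2M of the low pigment library and from 10466 to 14087 in the high pigment library. The phases G1, S and G2M held 749, 705 and 446 low pigment and 708, 479 and 949 high pigment cells, and no barcode was shared between libraries. CPM are shares of a group's UMIs and not RNA per cell. Of the 7 melanocytic markers Mitf, Sox10, Mlana, Dct, Tyrp1, Pmel and Tyr, all 7 reached 2 CPM, with summed levels of 11243 CPM in the low and 14732 CPM in the high pigment library. None of 5 fibroblast, 5 leukocyte, 4 endothelial, 3 keratinocyte and 3 erythroid markers did. Their summed levels in the low and the high pigment library were 0.832 and 2.15 CPM for the fibroblast, 2.99 and 0.659 for the leukocyte, and 0.185 and 0.173 for the endothelial list. They were 0.185 and 0.0347 CPM for the keratinocyte list, and 0.0617 and 0 for the erythroid list.

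Of the 67 histone genes, 27 had a mean of at least 2 CPM over the libraries: 3 of 6 H1, 6 of 18 H2A, 6 of 18 H2B, 5 of 12 H3 and 7 of 13 H4 genes. A mean of at least 10 CPM was reached by 13 genes, of which 3 encode H1, 5 H2A, 1 H2B, 1 H3 and 3 H4. Another 26 genes had UMIs but stayed under 2 CPM, from Hist1h2ak, Hist1h2an and Hist1h2ba with 1 UMI each over both libraries up to a mean of 1.67 CPM for Hist2h3c1. The last 14 genes had 0 UMIs in both libraries, where 3 counts would be 0.0925 CPM in the low and 0.104 CPM in the high pigment library. Just inside the limit of 2 CPM stood Hist1h4a with a mean of 2.02 CPM, and just outside it Hist2h3c1. Among genes known for their use in testis, Hist1h1t, a linker histone of spermatocytes, had 21 UMIs in the low and 0 in the high pigment library. The testis H2A gene Hist1h2aa had 4 and 1 UMIs, and the testis H2B gene Hist1h2ba had 1 and 0.

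The genes at 0 were not spread evenly over the genome. Of the 54 members on chromosome 13, 18 lie in the stretch chr13:21715763-21837530, and 13 of these were at 0. This stretch held no member of at least 2 CPM and gave 28 UMIs in the low and 4 in the high pigment library, out of 20662 and 10326 for all members on the chromosome. Near-identical copies stand in the same genes. In the last 500 transcript bases, the share of 50-base windows also found in a transcript of another gene had a median of 86.0% over the 14 genes at 0 and 53.8% over the 26 lower genes. It was 40.4% over the 27 genes of at least 2 CPM and 1.77% over the 13 of these with at least 10 CPM. Reads from such windows may match more than 1 annotated gene, the sources used here do not say how they were counted, and the part of this in the zeros was not tested. An exception was Hist1h4j, at 0 with 1.77% of windows shared. In the other direction, Hist1h1e had 99.1% of windows shared but 2665 UMIs in the low and 1394 in the high pigment library. Hist2h2aa2 was at 0 while Hist2h2aa1, whose last 500 bases are found elsewhere in full, had 778 and 570 UMIs, so the split between these copies is uncertain.

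Levels were also set beside the annotated length after the stem-loop, with a limit of 100 bases chosen after the transcripts were seen. Of the 23 genes with at least 100 annotated bases after it, 17 reached 2 CPM, and together they made up 58.9% of the summed mean CPM. Of the 23 with fewer bases, 7 reached 2 CPM and the class made up 15.0%. The 21 genes with no match made up 26.1%, with 3 genes of at least 2 CPM, and Hist1h2bc was most of it. Some of these 21 have short annotated transcripts, down to 312 bases, and 381 in Hist2h2bb. A transcript annotated to end before the stem-loop cannot show it, so no match does not mean that a gene lacks one. With a limit of 200 bases the shares of the longer and the shorter class were 46.7% and 27.2%. The annotation itself is drawn from polyadenylated RNA in part, so length and level are not independent. A poly(A) signal (AATAAA or ATTAAA) was looked for in the last 50 annotated bases. It was found in 9 of the 27 genes of at least 2 CPM and in 5 of the 13 of at least 10 CPM. Of the 26 genes under 2 CPM with UMIs it was found in 4, and of the 14 genes at 0 also in 4.

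**Figure D1:**
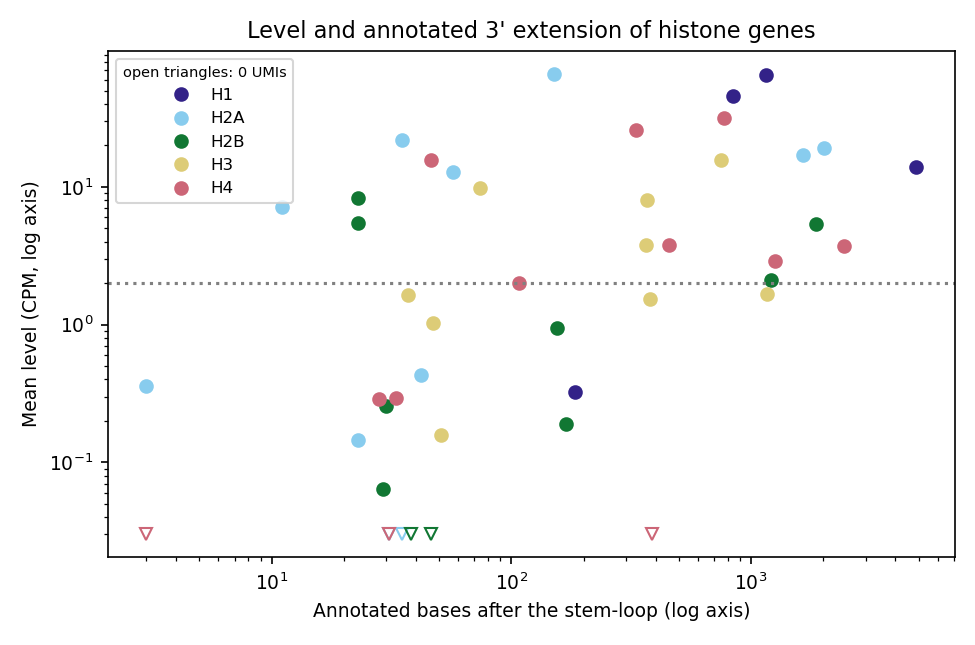
Mean level in CPM (log axis) against the annotated transcript bases after the stem-loop (log axis) for the 46 genes with a match, coloured by histone family, with open triangles for genes at 0 UMIs and a dotted line at 2 CPM. Of the 23 genes with at least 100 bases 17 lie above the line, and of the 23 with fewer bases 7 do.

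Summed over all members, histone RNA was 732 CPM in the low pigment library (95% interval 723 to 741) and 410.2 CPM in the high pigment library (403 to 418). Within the low pigment library it was 599 CPM in G1, 749.9 in S and 865 in G2M, and within the high pigment library 388 in G1, 464 in S and 401 in G2M. All 3 low pigment phases thus lay above all 3 high pigment phases. The step from G1 to S was a ratio of 1.25 (1.21 to 1.29) in the low and 1.20 (1.14 to 1.26) in the high pigment library. That from G1 to G2M was 1.44 (1.40 to 1.49) in the low and 1.03 (0.991 to 1.08) in the high pigment library.

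These small steps joined families that differed in direction. The H1 genes summed to 67.6 CPM in G1, 183 in S and 213 in G2M of the low pigment library, and to 63.2, 144 and 99.2 CPM in the high pigment one. The H2A genes had 117, 244 and 264 CPM in the low and 58.7, 123 and 94.5 CPM in the high pigment library. Both families were at their lowest in G1 in either library. The H4 genes had 67.8, 117 and 160.1 CPM in the low and 43.1, 64.9 and 65.9 CPM in the high pigment one. The H3 genes had 57.2, 61.2 and 83.2 CPM in the low and 22.2, 27.1 and 29.2 CPM in the high pigment library. H4 thus had its lowest level in G1 as well, while for H3 the S to G1 ratio was 1.07 (0.961 to 1.19) in the low and 1.22 (0.987 to 1.51) in the high pigment library, intervals that include 1. Much of the H3 sum in G1 was Hist1h3d, with 481 of 621 UMIs in the low and 96 of 192 in the high pigment library. Of the 5 H3 genes of at least 2 CPM, the other 4 were at least 1.5-fold higher in S than in G1 of either library. Over all genes of at least 2 CPM this share was 8.43% in the low and 8.76% in the high pigment library. The H2B genes ran the other way, with 289.6, 145 and 145 CPM in the low and 201, 105 and 112 CPM in the high pigment library. H2B was 48.3% of the histone UMIs in low pigment G1 cells and 51.7% in high pigment G1 cells, against 19.3% and 22.7% in S.

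**Figure D2:**
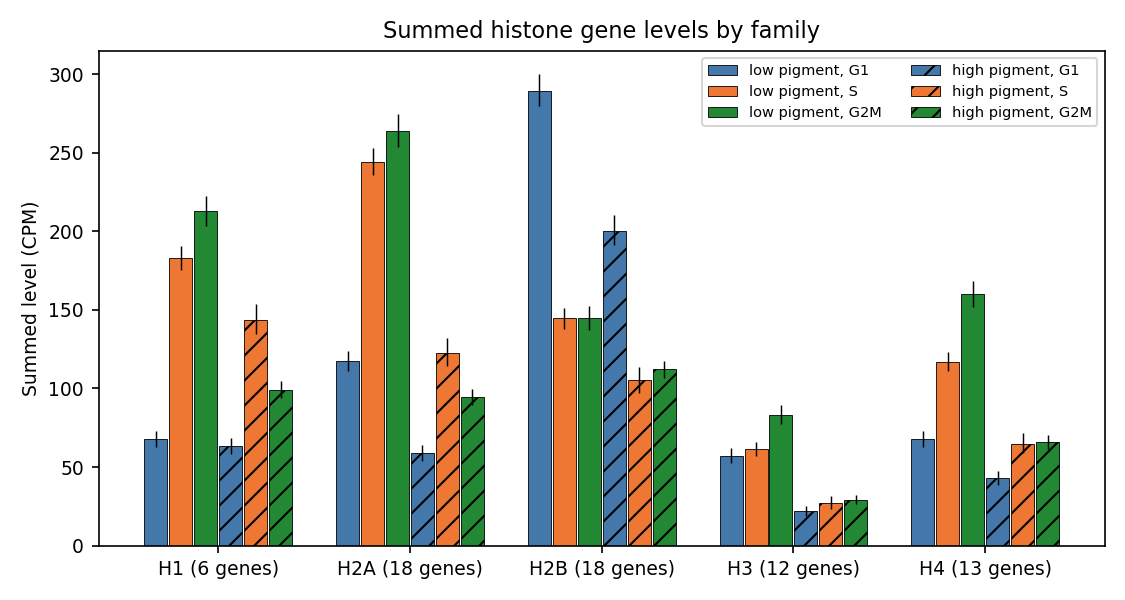
Summed CPM of each histone family (bars from 0) in the 6 groups of cells, with plain bars for the low and hatched bars for the high pigment library and exact Poisson 95% intervals. H2B is highest in G1, at 289.6 CPM in the low and 201 CPM in the high pigment library, while H1, H2A and H4 are lowest there.

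A single gene carried the H2B pattern. Hist1h2bc, a core H2B gene, stood at 269 CPM in G1, 99.8 in S and 86.1 in G2M of the low pigment library, and at 189, 80.3 and 89.9 CPM in the high pigment library. Its S to G1 ratio was 0.371 (0.347 to 0.396) in the low and 0.424 (0.383 to 0.470) in the high pigment library. Without it the 66 other genes summed to 330.3 CPM in G1, 650.1 in S and 778 in G2M of the low pigment library. In the high pigment library they summed to 199, 384 and 311 CPM. The S to G1 ratio of this sum was 1.97 (1.89 to 2.05) and 1.93 (1.82 to 2.06), and the G2M to G1 ratio 2.36 (2.26 to 2.45) and 1.57 (1.48 to 1.66).

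Hist1h2ae, a core H2A gene, had 20.7 CPM in G1, 130.3 in S and 131 in G2M of the low pigment library, and 17.7, 61.3 and 41.7 CPM in the high pigment one. The S to G1 ratio was 6.28 (5.46 to 7.26) in the low and 3.47 (2.87 to 4.22) in the high pigment library. G1 was lowest in both libraries, and the S and G2M levels of the low pigment library lay above those of the high pigment library. Hist1h1e, a linker histone gene, had 19.7, 107 and 122 CPM in the low and 20.8, 79.9 and 51.7 CPM in the high pigment library, with S to G1 ratios of 5.45 (4.71 to 6.32) and 3.85 (3.24 to 4.59). Of the windows at the 3′ end of Hist1h2ae, 56.1% stand in another transcript too. The annotated span of Hist1h1e overlaps those of Hist1h2be and Gm11398 on the same strand, and 99.1% of its windows are shared, so the counts of this gene are uncertain. The linker histone gene Hist1h1d had 5.07, 21.6 and 25.9 CPM in the low and 5.08, 18.3 and 11.0 CPM in the high pigment library. In G1 the libraries thus had nearly the same level of Hist1h1e and of Hist1h1d. Hist1h1c, also a linker histone gene, was flatter, with 41.7, 52.9 and 63.2 CPM in the low and 37.4, 45.4 and 36.3 CPM in the high pigment one.

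The core H2A genes Hist2h2ac and Hist2h2aa1 were lowest in G1 as well. Hist2h2ac had 3.69, 23.0 and 24.0 CPM in the low and 4.38, 11.4 and 10.4 CPM in the high pigment library. Hist2h2aa1 had 7.74, 30.1 and 35.0 CPM in the low and 11.4, 30.2 and 20.4 CPM in the high pigment library. Among genes of H4, the most conserved core histone, Hist1h4d had 23.9, 45.5 and 62.6 CPM in the low and 9.69, 23.6 and 24.8 CPM in the high pigment library. Hist1h4h had 8.20, 20.8 and 34.3 CPM in the low and 8.42, 10.7 and 12.2 CPM in the high pigment library. Hist1h4i varied less, with 23.5, 30.9 and 43.0 CPM in the low and 18.5, 21.5 and 19.4 CPM in the high pigment library. For these 3 genes the low pigment levels climbed in the order G1, S, G2M, while in the high pigment library their S and G2M levels lay close together.

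Beside Hist1h2bc, another 3 genes of at least 10 CPM were highest in G1 of both libraries. Hist1h3d, a core H3 gene, had 44.3 CPM in G1, 16.3 in S and 14.5 in G2M of the low pigment library, and 11.1, 2.31 and 5.17 CPM in the high pigment library. Hist3h2a, a core H2A gene, had 38.6, 16.3 and 18.9 CPM in the low and 14.0, 6.28 and 8.64 CPM in the high pigment library. Its annotated span overlaps that of Trim17 on the same strand. Hist1h2ac, a further core H2A gene, had 42.6, 23.0 and 26.9 CPM in the low and 8.19, 6.94 and 7.72 CPM in the high pigment library. In the high pigment library its S to G1 ratio was 0.847 (0.564 to 1.26), so that an order of its phases was not detectable there. All 3 have an annotated transcript of at least 752 bases beyond the stem-loop, a length they share with Hist1h1c, Hist1h1d, Hist1h1e and Hist1h4d, which were not highest in G1.

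**Figure D3:**
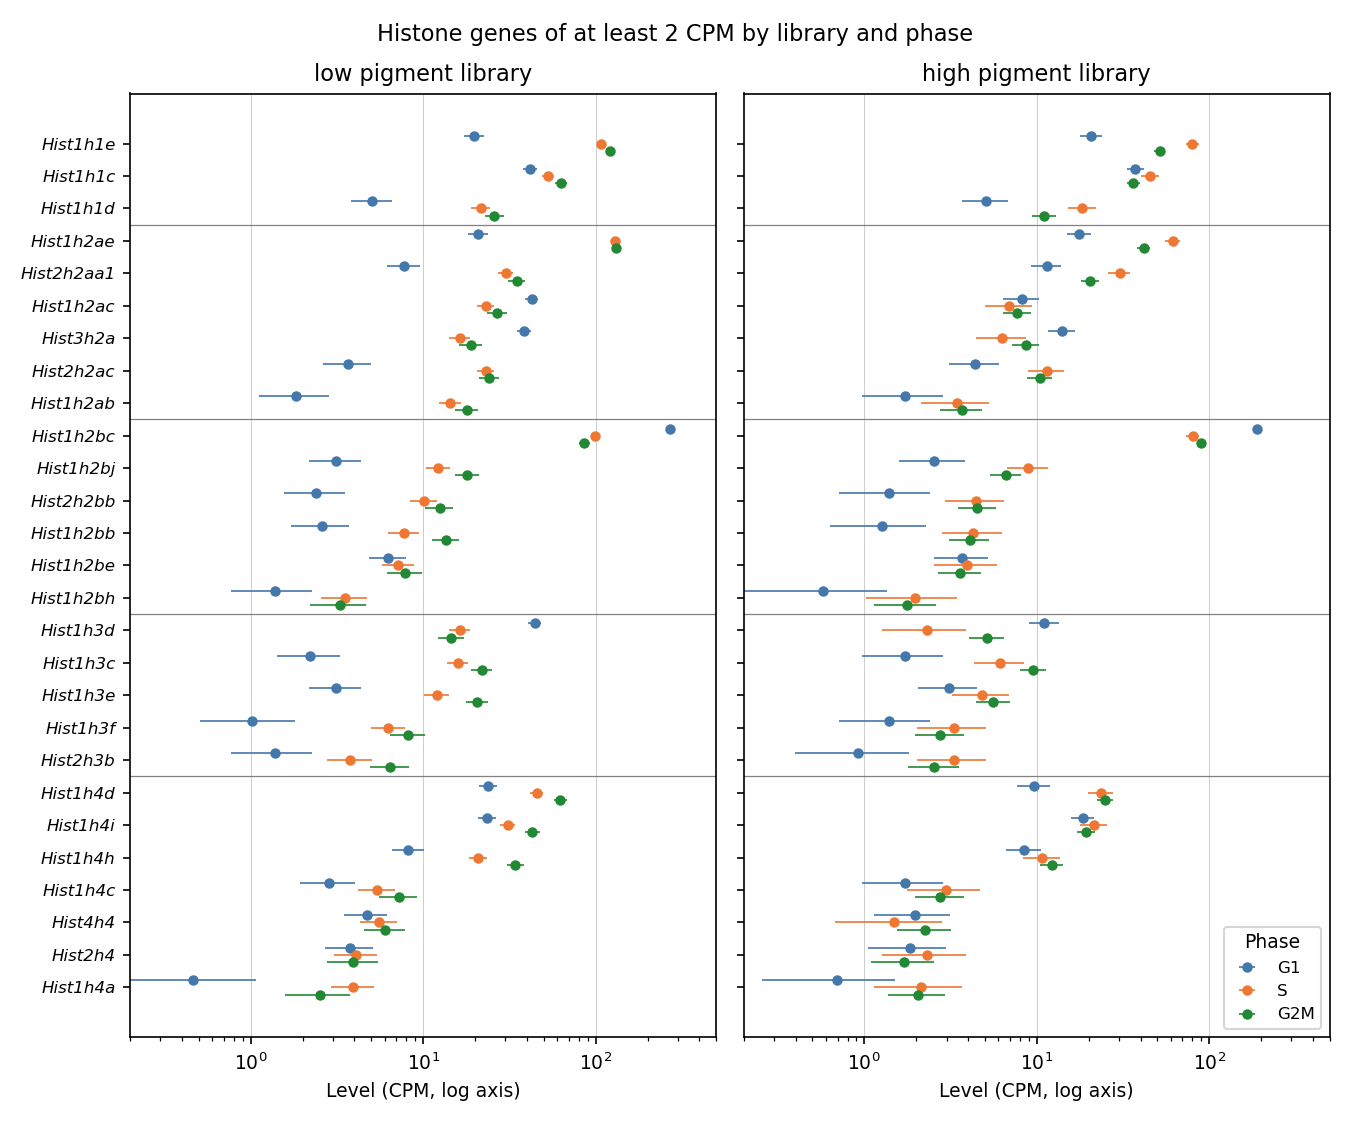
CPM (log axis) of the 27 histone genes of at least 2 CPM in G1, S and G2M cells of the low (left) and high (right) pigment library, with exact Poisson 95% intervals and lines between the families H1, H2A, H2B, H3 and H4. Hist1h2bc, Hist1h3d, Hist3h2a and Hist1h2ac have their highest level in G1 in both panels, and Hist1h2ae and Hist1h1e their lowest.

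Of the 14 genes between 2 and 10 CPM, the most abundant of their families were Hist1h3c (H3), Hist1h2bj (H2B), Hist1h2ab (H2A) and Hist1h4c (H4). Hist1h3c had 2.21 CPM in G1, 15.9 in S and 21.8 in G2M of the low and 1.73, 6.11 and 9.56 CPM in the high pigment library. Hist1h2bj had 3.13, 12.2 and 18.0 CPM in the low and 2.54, 8.92 and 6.65 CPM in the high pigment library, so that this H2B gene was lowest in G1, unlike Hist1h2bc. The H2A gene Hist1h2ab had 1.84, 14.3 and 17.9 CPM in the low and 1.73, 3.47 and 3.68 CPM in the high pigment one. The H4 gene Hist1h4c had 2.86, 5.39 and 7.21 CPM in the low and 1.73, 2.97 and 2.76 CPM in the high pigment library. In the low pigment library the S to G1 ratio of these 14 genes was largest for Hist1h4a at 8.56 (3.43 to 27.5), Hist1h2ab at 7.77 (4.88 to 13.03) and Hist1h3c at 7.20 (4.70 to 11.5). It was smallest for the H4 genes Hist2h4 at 1.09 (0.706 to 1.68) and Hist4h4 at 1.18 (0.811 to 1.73) and the H2B gene Hist1h2be at 1.14 (0.824 to 1.59). In the high pigment library the largest were those of the H3 gene Hist2h3b at 3.58 (1.51 to 9.40), Hist1h3c at 3.53 (1.89 to 6.93) and Hist1h2bj at 3.51 (2.10 to 6.06). The smallest were again those of Hist4h4 at 0.758 (0.298 to 1.80), Hist1h2be at 1.07 (0.605 to 1.88) and Hist2h4 at 1.25 (0.566 to 2.74). The intervals of these last 3 genes include 1 in both libraries.

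Counted by size alone, at a ratio of at least 1.5, 18 of the 27 genes were higher and 4 lower in S than in G1 of the low pigment library, where 8.43% of the 10809 genes of at least 2 CPM were higher and 4.43% lower. In the high pigment library 17 were higher and 3 lower, against 8.76% and 4.04% of all genes. From G1 to G2M, 20 were higher and 4 lower in the low pigment library, against 8.49% and 4.28%, and 17 higher and 3 lower in the high pigment library, against 5.75% and 2.62%. The median log2 ratio of S to G1 over the 27 genes was 1.45 in the low and 1.25 in the high pigment library, beside -0.03 and 0.02 over all genes tested. From S to G2M, a comparison added after the values were seen, 4 genes were higher and 1 lower in the low pigment library (background 3.45% and 2.89%), and 3 higher and 2 lower in the high pigment library (3.59% and 4.14%). The sum over all members was 1.15 (1.12 to 1.19) times its S level in G2M of the low and 0.864 (0.825 to 0.904) times in the high pigment library.

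**Figure D4:**
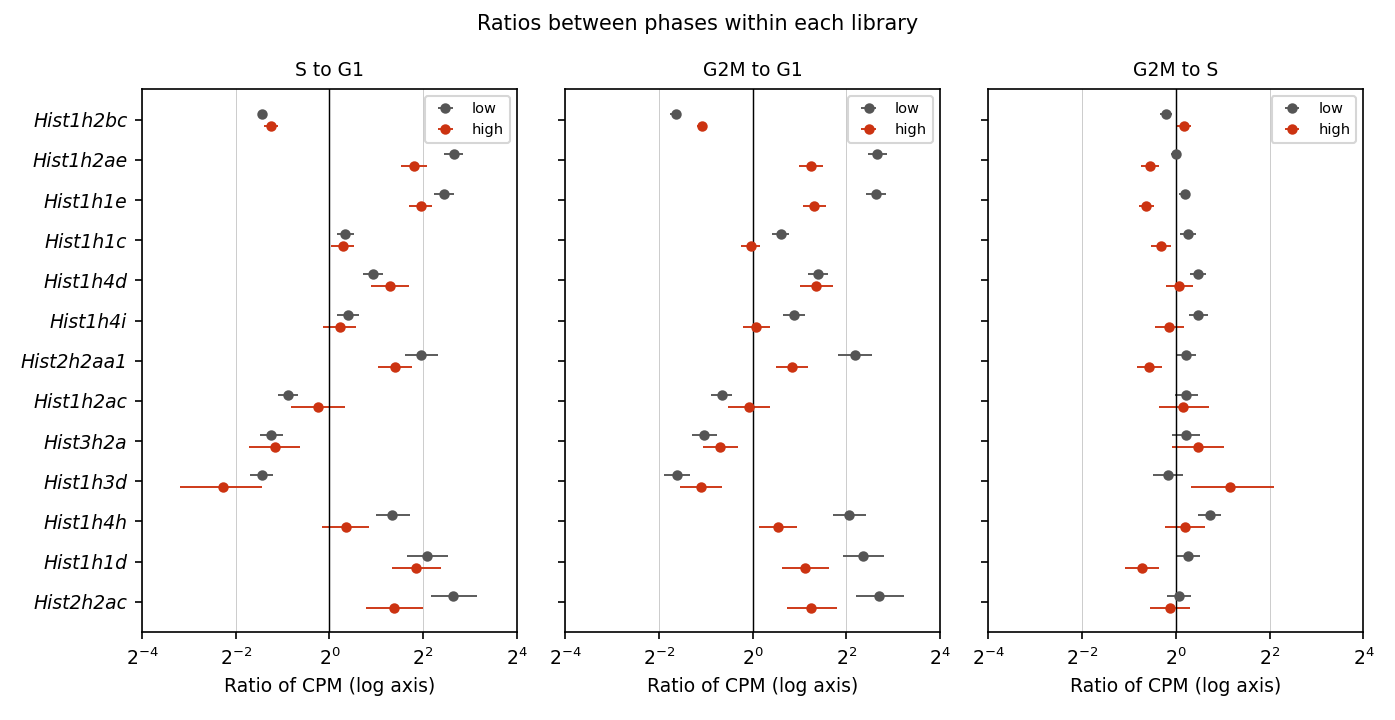
Ratio of CPM between phases within each library (log axis) for the 13 genes of at least 10 CPM, with exact 95% intervals. For S to G1 and G2M to G1, Hist1h2bc, Hist1h2ac, Hist3h2a and Hist1h3d lie left of 1 and Hist1h2ae, Hist1h1e, Hist2h2aa1, Hist2h2ac and Hist1h1d right of it.

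Phase calls bear on these values. Calling phases again on thinned cells from lists of S and G2M genes without a histone gene gave the authors' phase back in 78.0% of G1, 67.9% of S and 99.8% of G2M cells of the low pigment library, and in 57.3%, 44.9% and 99.9% in the high pigment library. With those calls the S to G1 ratio of the sum in the high pigment library was 0.994 in place of 1.20. Depth differed between phases as well. Among cells of up to 15000 UMIs the S to G1 ratio of the sum was 1.00 (0.947 to 1.06) in the low and 1.18 (1.11 to 1.25) in the high pigment library. In the same cells the S to G1 ratio of Hist1h2ae was 5.10 (4.13 to 6.33) in the low and 3.90 (3.07 to 5.00) in the high pigment library. That of Hist1h2bc was 0.365 (0.320 to 0.415) and 0.338 (0.296 to 0.384), and in cells over 15000 UMIs 0.368 (0.338 to 0.400) and 0.656 (0.553 to 0.777). For Hist1h3d the high pigment ratio was 0.209 over all cells, 0.125 (0.0486 to 0.271) in the shallower and 0.524 (0.190 to 1.26) in the deeper cells.

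Between the libraries, the summed histone level of the high pigment library was 0.560 times that of the low pigment library (0.548 to 0.573). All 5 families were lower, with ratios of 0.403 (0.370 to 0.438) for H3, 0.433 (0.414 to 0.453) for H2A, 0.522 (0.492 to 0.553) for H4, 0.640 (0.611 to 0.671) for H1 and 0.711 (0.683 to 0.740) for H2B. Within phases the ratio of the sum was 0.647 (0.620 to 0.674) in G1, 0.619 (0.593 to 0.646) in S and 0.464 (0.448 to 0.480) in G2M. Of the 27 genes, 23 were at least 1.5-fold lower and 0 higher over all cells, against 12.6% and 4.75% of all genes tested. In G1, 11 were lower and 1 higher (background 14.1% and 5.85%), in S 19 and 0 (13.8% and 6.19%), and in G2M 25 and 0 (14.7% and 5.45%). The median log2 ratio over all cells was -1.01 for the 27 genes and -0.11 for all genes tested.

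Of the 13 genes of at least 10 CPM, the 3 with the smallest ratios were among those highest in G1. Hist1h2ac had 30.6 CPM in the low and 7.70 CPM in the high pigment library, a ratio of 0.251 (0.216 to 0.291), and 0.192 (0.148 to 0.247) within G1. Hist1h3d had 25.2 and 6.34 CPM, a ratio of 0.252 (0.213 to 0.296), and 0.250 (0.199 to 0.312) within G1. Hist3h2a had 24.5 and 9.74 CPM, a ratio of 0.397 (0.346 to 0.456), and 0.362 (0.293 to 0.444) within G1. These 3 genes were lower in the high pigment library in each phase, in cells of up to 15000 UMIs as in deeper ones. In the shallower cells the ratio over all phases was 0.223 for Hist1h2ac, 0.199 for Hist1h3d and 0.328 for Hist3h2a. In the deeper ones it was 0.255, 0.273 and 0.400.

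Hist1h2bc, though also highest in G1, differed less between the libraries, with 153 CPM in the low and 118 CPM in the high pigment library, a ratio of 0.772 (0.738 to 0.806). Its ratio was 0.703 (0.661 to 0.747) in G1, 0.805 (0.723 to 0.894) in S and 1.04 (0.955 to 1.14) in G2M. In G2M cells of up to 15000 UMIs it was 0.556 (0.456 to 0.683). Over the alternative scalings, cells, depths and phase calls, the Hist1h2bc ratio ranged from 0.585 to 0.998 in G1 and from 0.577 to 1.04 in S. The ratio of the H2B sum in G1 ranged from 0.583 to 0.958. Among the linker histone genes, Hist1h1c had 52.1 and 38.5 CPM, a ratio of 0.740 (0.686 to 0.799), Hist1h1e 82.2 and 48.3 CPM, a ratio of 0.588 (0.551 to 0.628), and Hist1h1d 17.3 and 10.8 CPM, a ratio of 0.624 (0.542 to 0.719). Within G1 their ratios were 0.896 (0.774 to 1.04), 1.05 (0.859 to 1.29) and 1.00 (0.658 to 1.52), all with intervals that include 1. In G2M they were 0.574 (0.509 to 0.648), 0.424 (0.386 to 0.466) and 0.427 (0.346 to 0.524).

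Among the H2A genes that were lowest in G1, Hist2h2aa1 had 24.0 and 19.8 CPM, a ratio of 0.824 (0.738 to 0.919), the largest of the 13 genes of at least 10 CPM. Its ratio was 1.48 (1.09 to 1.998) in G1, 1.00 (0.837 to 1.20) in S and 0.583 (0.496 to 0.686) in G2M. These values moved with depth: in cells of up to 15000 UMIs the ratio was 1.29 (0.847 to 1.98) in G1, 2.43 (1.67 to 3.62) in S and 1.99 (1.02 to 4.43) in G2M. In deeper cells it was 1.79 (1.15 to 2.79), 0.780 (0.568 to 1.05) and 0.483 (0.392 to 0.593). Hist1h2ae had 93.8 and 38.6 CPM, a ratio of 0.411 (0.383 to 0.440), with 0.851 (0.689 to 1.05) in G1, 0.470 (0.419 to 0.527) in S and 0.318 (0.288 to 0.351) in G2M. This gap moved with depth too. In cells of up to 15000 UMIs, whose mixtures of phases differ, Hist1h2ae had 49.2 CPM in the low and 45.3 CPM in the high pigment library. Within phases these cells had 20.6 and 16.7 CPM in G1, 105 and 65.1 in S, and 75.5 and 56.6 in G2M. Hist2h2ac had 16.8 and 8.80 CPM, a ratio of 0.523 (0.449 to 0.608). Of the H4 genes, Hist1h4d had 43.1 and 20.0 CPM, a ratio of 0.464 (0.421 to 0.512), Hist1h4h 20.4 and 10.8 CPM, a ratio of 0.528 (0.460 to 0.605), and Hist1h4i 31.8 and 19.6 CPM, a ratio of 0.614 (0.553 to 0.681). Hist1h4d was lower in each phase, with 0.406 (0.314 to 0.521) in G1, whereas Hist1h4h was at 1.03 (0.743 to 1.42) in G1.

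Between 2 and 10 CPM the ratio was largest for Hist1h4a at 0.701 (0.478 to 1.02), Hist2h3b at 0.595 (0.432 to 0.812) and Hist1h2bj at 0.545 (0.451 to 0.656). It was smallest for Hist1h2ab at 0.273 (0.214 to 0.346), Hist4h4 at 0.373 (0.272 to 0.504) and the H3 gene Hist1h3e at 0.409 (0.333 to 0.4995). The 1 member called higher in G1 was Hist1h4a, with 0.461 CPM in the low and 0.692 CPM in the high pigment library and a ratio of 1.503 (0.382 to 6.22), which counting error does not set apart from 1. In G2M the members called neither higher nor lower were Hist1h2bc and Hist1h4a.

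**Figure D5:**
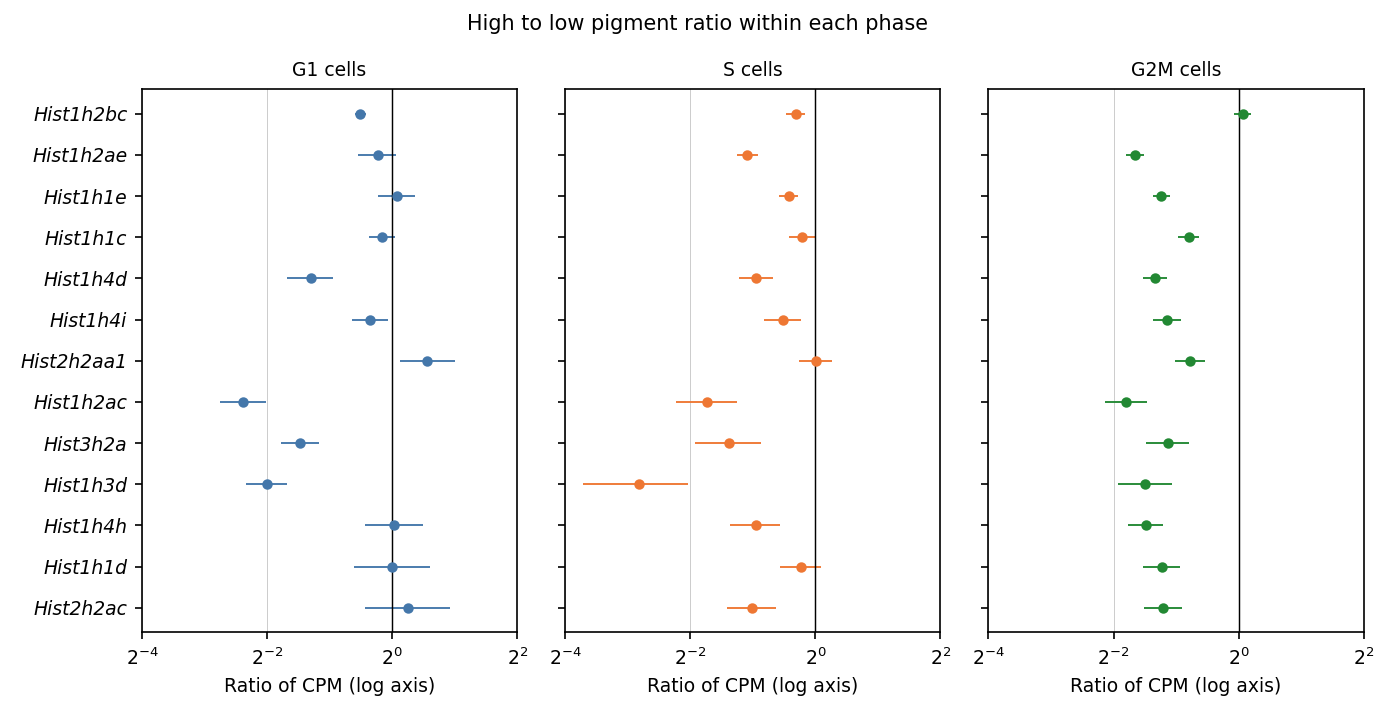
Ratio of CPM in the high to the low pigment library (log axis) within G1, S and G2M cells for the 13 genes of at least 10 CPM, with exact 95% intervals. In G1 several genes lie at 1 and Hist2h2aa1 at 1.48, while in G2M all but Hist1h2bc (1.04) lie well left of 1.

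The gap between the libraries moved with depth. Among cells of up to 15000 UMIs, 780 in the low and 1478 in the high pigment library, histone RNA was 601 CPM against 447 CPM, a ratio of 0.745 (0.720 to 0.771). Among deeper cells, 1120 and 658, it was 788 against 362 CPM, a ratio of 0.459 (0.445 to 0.475). The low pigment level was higher in deeper cells and the high pigment level lower. In G1 it was 591 and 609.8 CPM in the low and 405 and 357 CPM in the high pigment library. G2M cells went from 698 to 879.8 CPM in the low and from 464 to 347 CPM in the high pigment library, though only 64 low pigment G2M cells were in the shallower range. In the shallower cells the H1 family was higher in the high pigment library, at 1.20 (1.11 to 1.31) over all phases and 1.21 (1.06 to 1.38) in S, and so were Hist1h1e at 1.45 (1.28 to 1.65), Hist1h1d at 1.48 (1.14 to 1.94), Hist1h4h at 1.37 (1.07 to 1.77) and Hist2h2aa1 at 2.25 (1.78 to 2.88). Those 2 ranges hold different mixtures of phases, and so do the libraries. In the shallower range 499 of 780 low and 547 of 1478 high pigment cells were in G1. There H1 had 68.9 CPM in the low and 63.6 CPM in the high pigment library within G1, and 146 and 122 CPM within G2M. Hist1h1e had 17.7 and 16.1 CPM within G1, and 63.8 and 64.0 CPM within G2M. Within G1 the ratio of the sum was 0.685 (0.650 to 0.723) in the shallower and 0.585 (0.546 to 0.627) in the deeper cells.

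Per cell, the low pigment library had a mean of 8.69 histone UMIs in G1, 13.2 in S and 17.7 in G2M, and the high pigment library 4.75, 5.87 and 5.97. With every cell thinned to 7500 UMIs, at least 1 histone UMI was found in 96.2% of low pigment cells (exact Clopper-Pearson interval 95.2 to 97.0) and 88.8% of high pigment cells (87.4 to 90.1). Without thinning the shares were 99.2% and 95.3%. The thinned median was 5 UMIs per low pigment and 3 per high pigment cell. Histone RNA was therefore found in most cells of both libraries, and the tenth of cells with the most held 24.0% of thinned histone UMIs in the low and 29.3% in the high pigment library. Of single genes, Hist1h2bc was found in 75.4% of thinned low pigment G1 cells and 44.1% of S cells, and in 62.6% and 38.8% of the high pigment ones. For Hist1h2ae the order was opposite, with 12.8% of G1 and 53.3% of S cells in the low and 10.9% and 36.3% in the high pigment library. Hist1h3d was found in 24.4% of low pigment and 7.91% of high pigment G1 cells. No cell type that should lack these genes was at hand to give a background from free RNA, and these shares describe cells with a UMI.

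Genes that make and end the histone message were set beside the members. Slbp had 154 CPM in G1, 291 in S and 206 in G2M of the low pigment library, and 64.0, 219 and 87.5 CPM in the high pigment library. Over all cells it had 221 and 108 CPM, a ratio of 0.488 (0.468 to 0.510). Its ratio was 0.417 (0.378 to 0.459) in G1, 0.751 (0.705 to 0.800) in S and 0.425 (0.395 to 0.457) in G2M, so that Slbp was lower in the high pigment library in each phase, as the histone sum was. Npat, which switches on the histone gene clusters, had 17.8 and 19.4 CPM, a ratio of 1.09 (0.966 to 1.22). Of 20 measured genes of histone mRNA processing, 2 were at least 1.5-fold lower over all cells and 0 higher, near the 12.6% and 4.75% of all genes tested: Slbp and the 3′ end factor Pcf11 at 0.657 (0.610 to 0.708), followed by the nuclease Cpsf3 at 0.723 (0.648 to 0.806). With Npat, Cpsf6 at 1.08 (1.03 to 1.14) and Cpsf2 at 1.05 (0.995 to 1.10), both cleavage and polyadenylation factors, had the largest ratios. Slbp, Casp8ap2, Nasp and Chaf1b stand in the S list, and Hjurp, Anp32e and Cenpa in the G2M list, with which phases were called again, so their phase ratios are not independent of such lists.

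Of 24 histone chaperones and carriers, 0 were 1.5-fold higher and 0 lower over all cells, beside the same 4.75% and 12.6% of all genes. The smallest ratios were 0.673 (0.651 to 0.696) for Nasp, which binds H3 and H4, 0.686 (0.647 to 0.728) for Nap1l4, which binds H2A and H2B, and 0.755 (0.677 to 0.842) for Asf1b, an H3 and H4 carrier. The largest were 1.30 (1.20 to 1.40) for Asf1a, its relative, 1.13 (1.08 to 1.19) for Ubn1 of the HIRA complex and 1.06 (0.994 to 1.14) for Hjurp, the carrier of the centromere histone. Of 9 measured replacement histone genes, whose messages carry a poly(A) tail as a rule, 1 was higher and 0 lower, against the same background. This was Cenpa, the centromere H3, at 1.56 (1.496 to 1.64), followed by H2afj at 1.48 (1.43 to 1.52) and H2afv at 1.23 (1.18 to 1.28). H2afz, an H2A form of promoters, had 2459 and 2908 CPM, H2afx, the H2A form marked at DNA breaks, 81.0 and 81.3, and H1f0, a linker histone of resting cells, 59.5 and 60.6 CPM. The H3.3 genes H3f3a and H3f3b had 1042 and 1039 and 1556 and 1353 CPM, and with H2afx their ratios were the smallest of the list, at 0.997 (0.982 to 1.01), 0.869 (0.858 to 0.881) and 1.00 (0.948 to 1.06). The medians of the 3 lists over all cells were log2 ratios of -0.17, -0.16 and 0.02, beside -1.01 for the clustered histone genes.

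Promoters were inspected because the G1-high and the S-high members move in opposite directions. RefSeq (build GRCm38.p6) had 63 promoters for 62 members, each of 250 bases before to 50 after the start. The letters CCAAT stood on either strand in 85.7% of them, against 37.4% of all 32851 promoters, and in 3 of 12 H4 promoters. TATAAA stood in 55.6% against 13.6%, and the octamer ATTTGCAT, known from H2B promoters, in 22.2% against 1.74%. The octamer was found in 7 of 18 H2A and 7 of 17 H2B promoters and in 0 of the others. Shown are the 130 bases before the start of 2 genes lowest in G1 (Hist1h2ae and Hist1h1e) and 2 highest in G1 (Hist1h2ac and Hist1h3d), with capitals for these motifs on either strand.
Hist1h2ae, chr13:23571221-23571350, minus strand: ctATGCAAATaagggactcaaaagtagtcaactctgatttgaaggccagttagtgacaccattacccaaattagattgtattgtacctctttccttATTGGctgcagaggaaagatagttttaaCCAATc
Hist1h1e, chr13:23622559-23622688, minus strand: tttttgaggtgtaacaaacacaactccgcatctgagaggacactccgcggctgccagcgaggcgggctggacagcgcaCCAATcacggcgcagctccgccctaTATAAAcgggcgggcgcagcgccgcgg
Hist1h2ac, chr13:23683960-23684089, minus strand: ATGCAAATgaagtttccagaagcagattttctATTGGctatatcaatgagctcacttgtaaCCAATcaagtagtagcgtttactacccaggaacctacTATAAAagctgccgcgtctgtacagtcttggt
Hist1h3d, chr13:23575633-23575762, plus strand: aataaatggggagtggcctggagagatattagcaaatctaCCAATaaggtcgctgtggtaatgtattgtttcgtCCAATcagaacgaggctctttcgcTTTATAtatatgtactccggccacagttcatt
All 4 hold CCAAT, and the octamer stands in Hist1h2ae as in Hist1h2ac, which were lowest and highest in G1. The octamer of Hist1h2ae is also that of a neighbouring H2B gene on the other strand, so the H2A and H2B counts are not all of separate sites. Hist1h2bc, the most abundant gene highest in G1, had no promoter entry. These matches describe the letters in this window and name no bound factor.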

How the data were processed

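The authors deposited 1 matrix of UMI counts per gene and barcode for both libraries, for which the submitters' processing notes name Cell Ranger 6.1.2 and build mm10. The sources used here do not say whether depth was equalised when the libraries were joined, or whether strand was used. The authors also deposited a cell table with UMI counts per cell, the percent of mitochondrial UMIs, gene set scores, clusters and a phase for 4036 of 5818 barcodes. No result uses its scores directly, and 11 of its numeric columns, gene set scores and clusters among them, were not read. Whether its phases, on which the phase results rest, were assigned from its S and G2M scores was not checked. The sources used here do not give the genes behind its phases.

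For each library and phase, counts were added up and divided by all UMIs of the group to CPM, not divided by gene length, so levels are compared within a gene. Intervals are exact Poisson for CPM and exact conditional binomial for ratios. The limit of detection was taken as 3 counts. Genes of at least 2 CPM (mean of both libraries) were counted at 1.5-fold by size alone, and no test was made. These steps recovered known ratios in simulated counts drawn at random with Poisson counting error only. The simulation held no variation between cells or depths, so it checks the calculation and not whether the intervals cover such variation. Phases were called again with scanpy 1.11.5 from 42 S and 52 G2M genes after thinning to 7500 UMIs. Scrublet, at an expected rate of 0.06, marked 5 low and 15 high pigment cells, which were kept. Python 3.11.15, numpy 2.4.6, scipy 1.17.1 and matplotlib 3.10.9 were used.

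Members and lists were chosen with earlier results of these data known. Every member of at least 10 CPM is named. Of those from 2 to 10 CPM the most abundant of each family and those with the 3 largest and 3 smallest ratios are named, and of the other lists those with the 3 largest and 3 smallest, with a few fixed genes. Of the listed genes, Zfp473, H2afy2 and H1fx were under 2 CPM, and 1 name was not matched to the matrix. Alternatives were other scalings, cells, depths, phases and limits. The result of 1 further marker list is not reported here.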

Additional observations from a re-analysis of the deposited data

Results flagged for a closer look

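The histone sum lay above its S level in G2M of the low pigment library, at a ratio of 1.15, and below it in the high pigment library, at 0.864. The difference between the libraries was not tested. The linker histone genes took opposite directions in the same way: the G2M to S ratio was 1.20 in the low and 0.800 in the high pigment library for Hist1h1c, 1.20 and 0.602 for Hist1h1d, and 1.13 and 0.646 for Hist1h1e. Hist1h2bc ran the other way, with 0.863 in the low and 1.12 in the high pigment library. Each of these ratios had a 95% counting interval on 1 side of 1 in either library, and the difference was not tested. For Hist1h2bc the low pigment ratio turned with depth, to 1.61 (1.29 to 2.005) in cells of up to 15000 UMIs, beside 1.25 (1.08 to 1.44) in the high pigment library, and in deeper cells the ratios were 0.792 and 0.880. For Hist1h1e the low pigment ratio was 0.906 (0.649 to 1.24) in the shallower cells, beside 0.762 in the high pigment library. For Hist1h1c it was 1.55 beside 0.921, and for Hist1h1d 1.24 beside 0.647.

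Hist2h2aa1 was higher in the high pigment library within G1, at a ratio of 1.48, and lower within G2M, at 0.583. In cells of up to 15000 UMIs the G2M ratio was 1.99 (1.02 to 4.43), and the G1 and S ratios were 1.29 (0.847 to 1.98) and 2.43 (1.67 to 3.62), so that the opposite directions did not appear there. This difference was not tested, and its 3′ end is shared with Hist2h2aa2.

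Barcodes outside the authors' cell table also held histone RNA. Those with 50% or fewer mitochondrial UMIs had 703 CPM in the low pigment library (652 barcodes) and 472 CPM in the high pigment library (691 barcodes), beside 732 and 410.2 CPM in the table's cells. The 434 low pigment barcodes over 50% mitochondrial had 98.8 CPM.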

How the results depend on the processing

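Each group is 1 library, so the results rest on 2 libraries, and sort, library and depth cannot be told apart. No paired analysis was possible because each group has 1 library. Without marked doublets no result moved beyond its counting interval, or for counts by over 1.5 times. The causes of the changes below were not tested.

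For the summed ratio of high to low pigment (0.560 over all cells, 0.647 in G1, 0.619 in S, 0.464 in G2M), setting the median gene to 1 gave 0.593 over all cells, 0.689 in G1 and 0.495 in G2M. Weighting cells equally gave 0.594 and, in G2M, 0.486, thinning gave 0.596 and 0.495, and cells under 7% mitochondrial gave 0.542 over all cells. UMIs per cell gave 0.443 over all cells, 0.547 in G1, 0.444 in S and 0.336 in G2M. Cells of up to 15000 UMIs gave 0.745, 0.685, 0.803 and 0.665, and deeper cells, added after the values were seen, 0.459, 0.585, 0.547 and 0.394. Phases called again gave 0.804 in G1.

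For the phase ratios of the sum, UMIs per cell gave 1.52 for S to G1, 2.04 for G2M to G1 and 1.34 for G2M to S in the low pigment library, and 1.26 for G2M to G1 and 1.02 for G2M to S in the high pigment library. Cells of up to 15000 UMIs gave 1.00 and 1.18 for S to G1 and G2M to G1 in the low, and 1.14 and 0.973 for G2M to G1 and G2M to S in the high pigment library. Deeper cells gave 1.30 for S to G1 and 1.11 for G2M to S in the low, and 0.972 for G2M to G1 and 0.797 for G2M to S in the high pigment library. Phases called again gave 0.994 for S to G1 and 0.846 for G2M to G1 in the high pigment library.

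Ratios past 1.5-fold that turned to the other side of 1 did so with cells of up to 15000 UMIs. There the high to low ratio was 1.20 for H1, 1.48 for Hist1h1d, 1.45 for Hist1h1e, 1.37 for Hist1h4h and 1.17 for Hist2h2ac over all phases. In these cells the libraries hold different mixtures of phases, and H1 was not higher in the high pigment library within G1 or within G2M. Smaller differences turned there too, among them the ratio over all phases of Hist2h2aa1, at 2.25 (0.824 in all cells). In S the ratio was 1.21 for H1 (0.787), 1.53 for Hist1h1d (0.850), 1.19 for Hist1h1e (0.744) and 1.14 for Hist1h1c (0.859). That of Hist2h2aa1 in S, at 1.00 in all cells, was 2.43. Among ratios past 1.5-fold, those in G2M turned to 1.003 for Hist1h1e (0.424 in all G2M cells), 1.29 for Hist1h4h (0.357) and 1.99 for Hist2h2aa1 (0.583). In the low pigment library the G2M to G1 ratio of Hist1h2ac was 1.05 and the G2M to S ratio of Hist1h4h 0.906.

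Counts of genes past 1.5-fold moved with the same cells, which left 7 lower over all phases, 11 in S and 10 in G2M, and gave 1, 2 and 4 higher there and 0 in G1. Shares over all genes were counted with the main settings only. The counts in this paragraph therefore have no background beside them, and whether they exceed the general rate was not tested. Deeper cells gave 3 higher in G1, 5 lower in S than in G1 and 9 higher in G2M than in G1 of the high pigment library. For the 1 gene higher in G1, CPM without mitochondrial genes, equal weights, UMIs per cell, a 10 CPM minimum and a 2-fold limit gave 0, and the median gene, thinning, phases called again and no minimum gave 2. Phases called again also gave 1 higher in S, and 5 lower in S than in G1 of the high pigment library. UMIs per cell left 2 lower in G2M than in G1 of the low pigment library. A 2-fold limit left 14 lower over all cells and 10 in S. With a minimum of 10 CPM, 13 genes were counted, of which 10 were lower over all cells, 4 in G1, 7 in S and 12 in G2M. Of these, 7 and 6 were higher in S, and 9 and 6 in G2M, than in G1 of the low and high pigment library. With no minimum, 47 genes had UMIs in both libraries, with 38 lower and 1 higher over all cells. For each other comparison the genes with UMIs in both groups compared were counted, so the number of genes was not the same. Between the libraries 18 were lower in G1 and 1 higher in G2M. Then 7 and 5 were lower in S, and 8 and 6 in G2M, than in G1 of the low and high pigment library.

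Without thinning, a histone UMI was found in 99.2% of low and 95.3% of high pigment cells, with 98.9%, 99.4% and 99.3% in G1, S and G2M of the low and 93.2%, 97.5% and 95.8% of the high pigment library. At least 2 UMIs were found in 89.4% and 70.4% of thinned cells, with 86.4%, 91.5% and 91.0% in the low and 65.4%, 80.6% and 69.0% in the high pigment library.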
